A study of Mus musculus with 60 samples.

Results

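The genes described here encode the histone lysine methyltransferases and demethylases, the enzymes that place methyl groups on the lysines of histone tails and take them off. They were chosen by symbol (the Kmt, Kdm, Setd, Setdb, Nsd, Ehmt, Ezh, Suv39h, Smyd and Jmjd families with Ash1l and Dot1l), leaving out Kdm5c, Kdm5d and Kdm6a, which gave 54 of the 18088 genes measured. RNA was sequenced from the prefrontal cortex of 60 C57BL/6J mice at postnatal day 25. Chd8+/N2373K heterozygotes (Het below) carry 1 mutant copy of Chd8, which encodes a chromatin remodeler linked to autism, and were compared with wild-type (WT) mice. Het and WT pups of both sexes received fluoxetine, lithium or vehicle through the milk of their mothers over 3 weeks, from postnatal day 3 to day 24, and each of the 12 groups held 5 libraries. Fluoxetine is a selective serotonin reuptake inhibitor and lithium is a mood stabilizer. The labels state neither the litter of a pup nor the dose it took in. Pups of a group may therefore have had the same mother, as may Het and WT pups, or males and females, on the same treatment. Results shared by the genotypes or sexes are thus not known to be independent. A p-value here reflects no more than the variation among these 60 libraries.

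A methyl mark on a histone lysine is read according to its position. Methylation of H3K4, H3K36 and H3K79 goes with active genes, whereas methylation of H3K9, H3K27 and H4K20 goes with silenced or compacted chromatin. In the brain these enzymes are known above all from neurodevelopmental syndromes caused by the loss of 1 gene copy, among them Kmt2a, Kmt2d, Ehmt1, Setd5, Setd1a and Kdm6b in their human forms. The symbol rule also took in genes whose products act mainly on other proteins: Setd3 methylates a histidine of actin, Setd6 methylates the RelA subunit of NF-κB, and Jmjd6 and Jmjd7 are lysyl hydroxylases.

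The deposited values were reads divided by 1 size factor per library, called normalized counts below, and the recovered depth ran from 24.1 M to 31.6 M reads, with M for mega. Chd8 had a lowest, median and highest normalized count of 2473, 2631 and 2826 in Het vehicle mice and of 2977, 3105 and 3276 in WT vehicle mice, so the libraries did not overlap (log2 fold change −0.23, adjusted p = 6.67e-06). Markers of cortical excitatory neurons were high in every library, with a summed normalized count of 119600 to 208742. The dissection varied between libraries: the summed count of 14 olfactory bulb markers ran from 2928 to 42878 and that of 12 striatal markers from 5810 to 29831. A total of 16 libraries had an olfactory bulb score over 1 and 9 a striatal score over 0.9. Counts without them are given beside the results. A score averaged the markers' log2 levels, each centred over the libraries, and the cuts were set after the data were seen. The olfactory bulb scores nearest to the cut were 0.65 and 1.01. These scores reached 0.65 in WT fluoxetine and 2.13 in WT vehicle libraries. For fluoxetine against vehicle in WT mice, that fit thus left out vehicle libraries but no fluoxetine libraries. The members took 0.287% to 0.397% of the reads of a library.

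All 54 members were above 10 normalized counts in every library, so all passed the filter on low values. Per kilobase of exon, Ehmt2 was the highest at 933 normalized counts, ahead of Setd3 (708), Setd7 (619) and Smyd2 (469). Ehmt2 encodes G9a, the main enzyme for mono- and dimethylation of H3K9 in euchromatin, and Setd7 methylates H3K4 and several non-histone proteins. Kdm4d (11.1), Smyd1 (16.1) and Jmjd7 (20.1) were the lowest per kilobase. Smyd1 is best known from heart and skeletal muscle. Among the H3K27 methyltransferases, Ezh1, the form known from non-dividing cells, had 199 normalized counts per kilobase and Ezh2, the form known from dividing cells, 26.8.

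**Figure D1:**
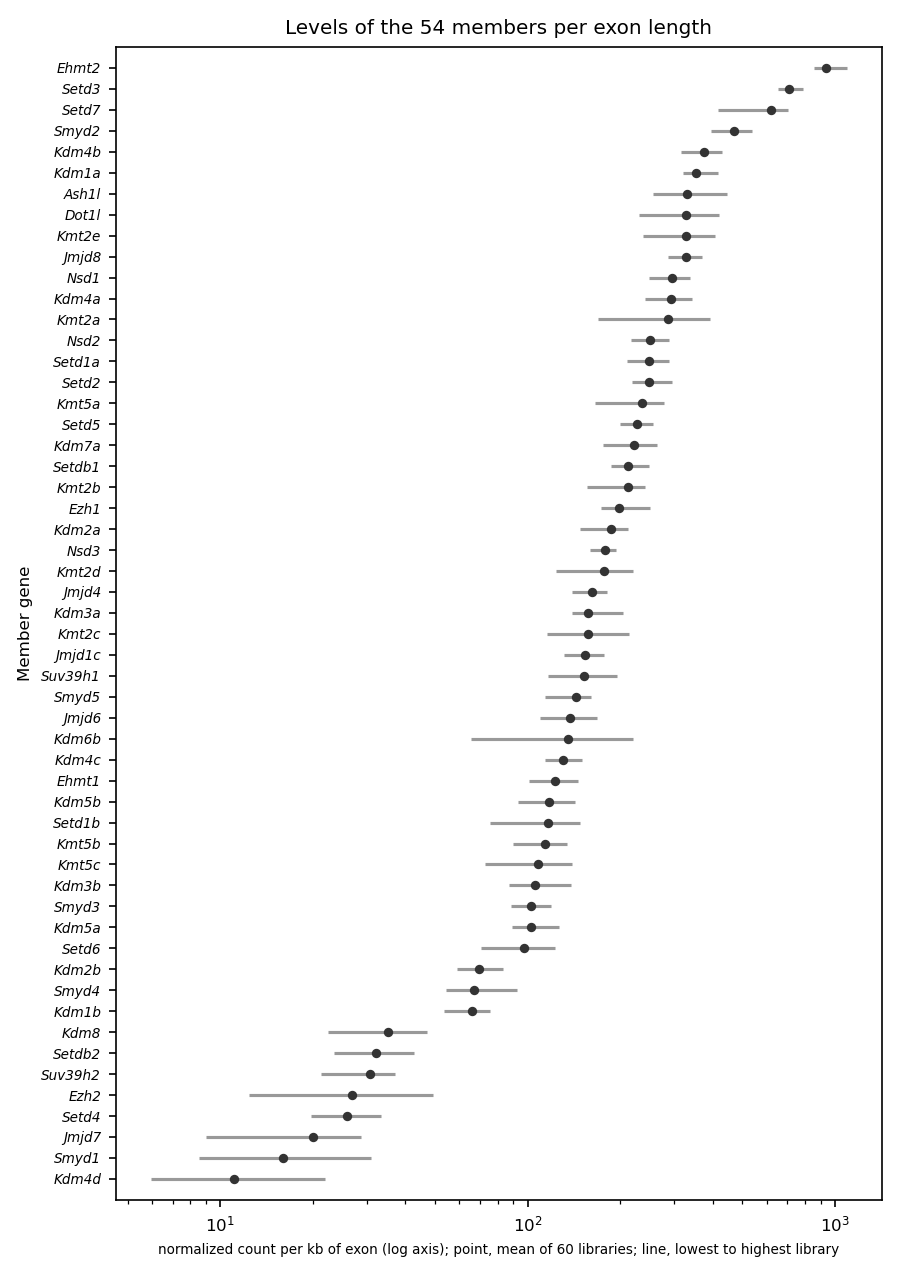
Normalized count per kilobase of exon (log axis) of each of the 54 members, with a point for the mean of 60 libraries and a line for the lowest to highest library. Levels run from 11.1 for Kdm4d to 933 for Ehmt2, and the line of Kdm6b, at a mean of 136, is among the widest of the well-expressed members.

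Fluoxetine was compared with vehicle in each genotype, averaged over both sexes (10 libraries against 10). In Het mice 3 members were higher and 19 lower at an adjusted p under 0.05, where 16.9% of all 17807 genes tested were higher and 16% lower. In WT mice 1 member was higher and 19 were lower, against 3.14% and 5.06% of all genes. The members' median log2 fold change was −0.04 in Het and −0.09 in WT mice, beside medians of 0.01 and 0.00 over all genes. Below 0 were 36 and 41 of the 54 members (66.7% and 75.9%, against 48.9% and 48.6% of all genes). Such a shift was not limited to fluoxetine. For Het against WT with vehicle 40 of 54 were below 0 (74.1%, against 51.5% of all genes). With lithium 37 were in WT mice (68.5%, against 51.7%) and 30 in Het mice (55.6%, against 50.6%). For Het against WT on lithium 27 were (50%, against 50.8%). The 13 genes lower in both genotypes were Dot1l, Jmjd1c, Jmjd6, Kdm2a, Kdm6b, Kdm7a, Kmt2a, Kmt2b, Kmt2c, Kmt2d, Kmt5a, Nsd2 and Setd1b, which is 68.4% of the lower members of each genotype. Kdm4b was higher in both, and no member was called in opposite directions. The share of all genes called in both genotypes was not counted, so this overlap is not read as particular to the members. Without the 16 olfactory-bulb-high libraries the counts were 13 in Het and 11 in WT mice, and without the 9 striatum-high libraries 23 and 17. Without the olfactory-bulb-high libraries the calls of Kdm1b, Kdm2a, Kdm3b, Kdm7a, Kmt2c, Nsd2, Setd1a, Setd1b and Setdb1 were lost in Het mice, and those of Dot1l, Ehmt1, Kdm3a, Kdm4b, Kmt2e, Kmt5a, Nsd2, Setd5 and Suv39h2 in WT mice. The WT count was 13 without fluoxetine male 5 or without vehicle female 5.

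**Figure D2:**
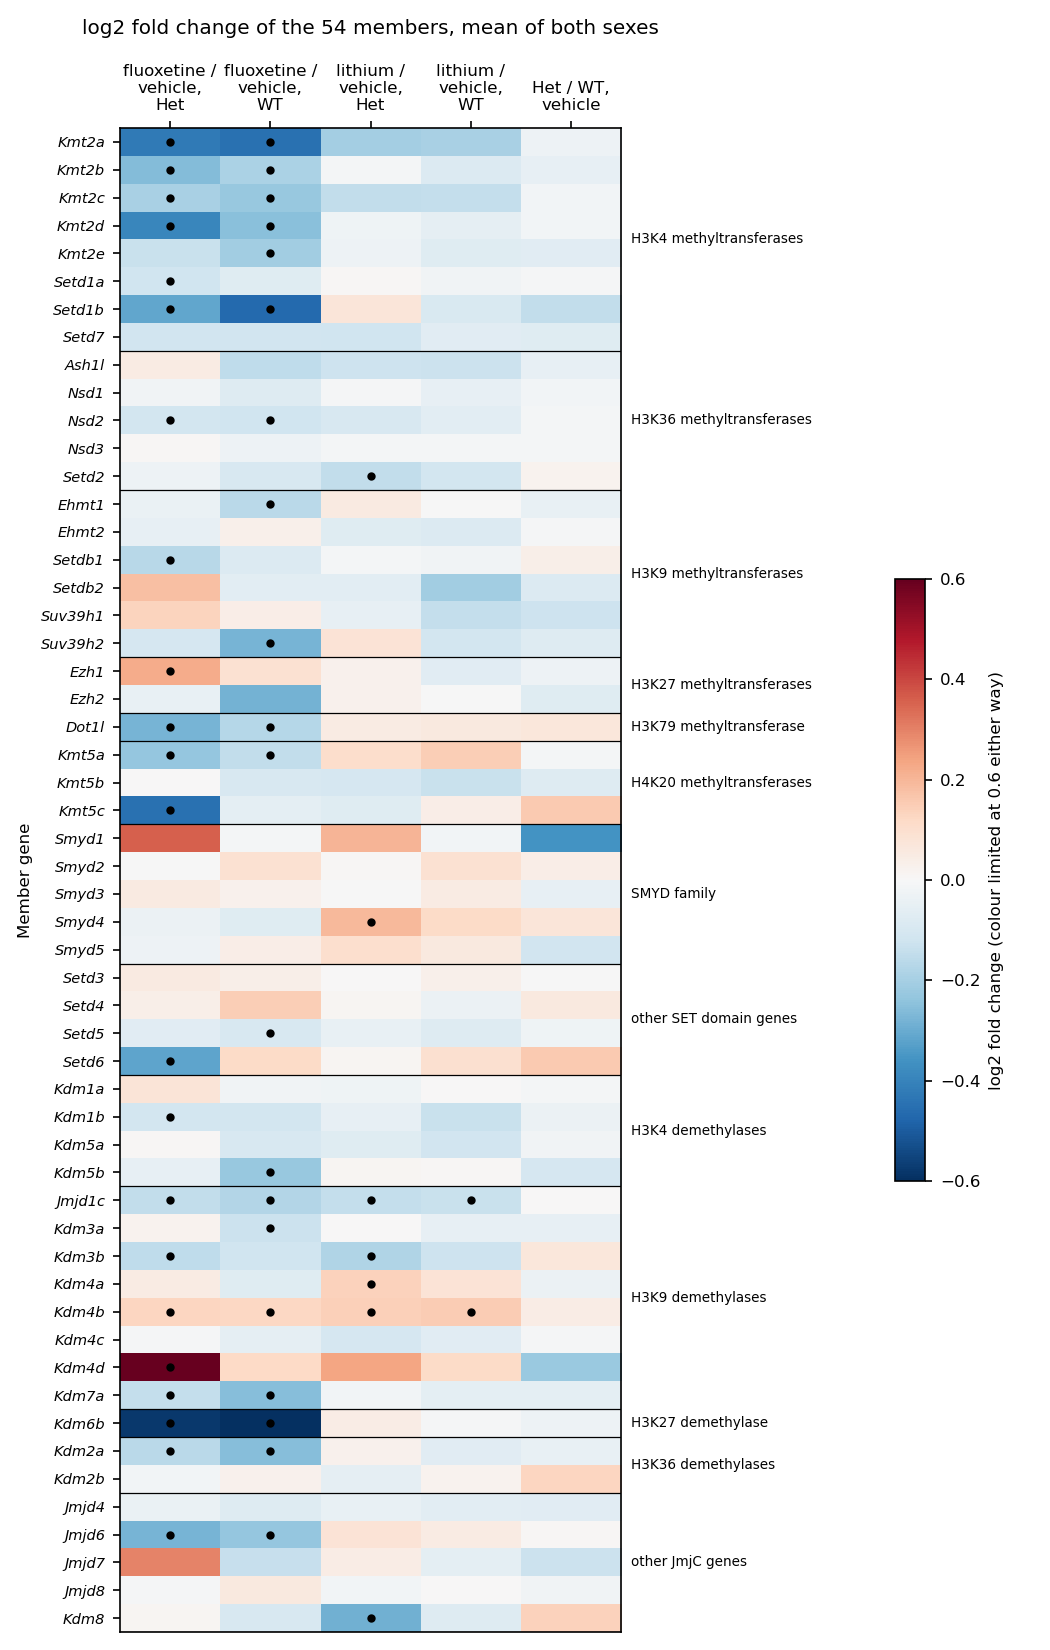
Colour gives the log2 fold change of each member (rows, grouped by role) in 5 comparisons (columns), each averaged over both sexes, and a black dot marks an adjusted p under 0.05. The left pair of columns, fluoxetine against vehicle, holds 22 dots in Het and 20 in WT mice, most of them in blue cells, and the Het against WT column holds 0.

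The H3K4 methyltransferases were the role group with the most members lowered by fluoxetine: 6 of 8 were lower in Het and 6 of 8 in WT mice, with group medians of −0.23 and −0.22 log2. Kmt2a (MLL1), which keeps developmental and neuronal gene promoters active, had 2830, 4168 and 5351 normalized counts (lowest, median, highest) with fluoxetine against 3992, 5503 and 6256 with vehicle in Het mice. In WT mice its values were 3550, 4084 and 4580 with fluoxetine against 5078, 5511 and 6528 with vehicle. All 10 WT fluoxetine libraries lay below the lowest WT vehicle library, while in Het mice 4 of 10 did. Kmt2a had a log2 fold change of −0.42 ± 0.08 in Het (SE, adjusted p = 3.15e-05) and −0.45 ± 0.08 in WT mice (adjusted p = 5.21e-05).

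Kmt2d (MLL4), an enhancer H3K4 monomethyltransferase mutated in Kabuki syndrome, had 2462, 2845 and 3455 normalized counts with fluoxetine against 2938, 3790 and 4408 with vehicle in Het mice. In WT mice it had 2753, 3323 and 3768 with fluoxetine against 3662, 3768 and 4098 with vehicle. Fluoxetine libraries sat low in both genotypes but overlapped with vehicle. In Het mice 5 of 10 lay below the lowest vehicle library, and in WT mice 9 of 10 did. The log2 fold change was −0.39 ± 0.06 in Het (adjusted p = 1.65e-06) and −0.25 ± 0.06 in WT mice (adjusted p = 0.00363). Kmt2b (MLL2) averaged 1781 ± 220 with fluoxetine and 2120 ± 122 with vehicle in Het mice (SD, n = 10 each), a log2 fold change of −0.26 ± 0.05 (adjusted p = 2.71e-05). In WT mice Kmt2b averaged 1923 ± 113 with fluoxetine and 2191 ± 84.9 with vehicle (−0.19 ± 0.05, adjusted p = 0.00553). Kmt2c (MLL3), the partner enzyme of Kmt2d at enhancers, was lower by less: −0.20 ± 0.07 in Het (adjusted p = 0.0230) and −0.23 ± 0.07 in WT mice (adjusted p = 0.0272). Its call was lost without any 1 of 6 Het libraries (fluoxetine female 2 and 4, fluoxetine male 1 and 4, vehicle male 1 and 2; adjusted p 0.0515 to 0.0669). In WT mice it was lost without fluoxetine female 5, fluoxetine male 5, vehicle female 4 or vehicle female 5 (0.0568 to 0.0765).

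Setd1b, a catalytic subunit of the SET1/COMPASS complex that writes most H3K4 trimethylation at promoters, had the smallest adjusted p of the members in the comparisons with vehicle averaged over both sexes. It had 914, 1176 and 1352 normalized counts with fluoxetine against 1247, 1456 and 1758 with vehicle in Het mice, and 1064, 1145 and 1366 against 1413, 1624 and 1730 in WT mice. The WT libraries did not overlap, and 7 of 10 Het fluoxetine libraries lay below the lowest Het vehicle library. Its log2 fold change was −0.31 ± 0.06 in Het (adjusted p = 8.42e-05) and −0.47 ± 0.06 in WT mice (adjusted p = 2.25e-07). Without the 16 olfactory-bulb-high libraries the Het value was −0.20 (adjusted p = 0.0951). Setd1a, the catalytic subunit of the sister complex, was lower in Het mice (−0.12 ± 0.03, adjusted p = 0.00452) and had −0.07 ± 0.03 in WT mice (adjusted p = 0.166). Its Het value was −0.09 without the olfactory-bulb-high libraries (adjusted p = 0.233), and with only the groups compared the adjusted p was 0.0641. The annotation places 51.8% of its exon bases in an overlapping gene on the same strand, Gm49388, so reads may be split between them. Kmt2e (MLL5), a reader of H3K4 methylation with no firm enzyme activity, was lower in WT mice (−0.21 ± 0.06, adjusted p = 0.0154) and had −0.14 ± 0.06 in Het mice (adjusted p = 0.0671). Setd7 had −0.11 in both genotypes and was called in neither (adjusted p = 0.130 in Het and 0.223 in WT mice).

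Promoters are shown for members of the shared set, called lower in both genotypes. That of Kmt5c, which was called in Het mice and not in WT mice, is beside them. RefSeq windows on GRCm38.p6, from 250 bases before to 50 after the start, were matched for 41 of the 54 members. The 5 below are among the members with the smallest adjusted p. Capitals mark the motifs searched on both strands: the GC box GGGCGG bound by SP factors, the CCAAT box CCAAT, the cyclic AMP response element (CRE) TGACGTCA and its core TGACG, the E-box CACGTG and the EGR motif GCGTGGGCG.
Kmt2a, chr9:44881240-44881539, minus strand: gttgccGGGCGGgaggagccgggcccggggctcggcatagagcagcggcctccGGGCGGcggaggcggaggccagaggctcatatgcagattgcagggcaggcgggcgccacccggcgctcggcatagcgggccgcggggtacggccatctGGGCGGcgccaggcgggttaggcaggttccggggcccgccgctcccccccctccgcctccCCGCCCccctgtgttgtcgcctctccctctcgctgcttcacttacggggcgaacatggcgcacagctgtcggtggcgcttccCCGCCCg
Kmt2d, chr15:98871156-98871455, minus strand: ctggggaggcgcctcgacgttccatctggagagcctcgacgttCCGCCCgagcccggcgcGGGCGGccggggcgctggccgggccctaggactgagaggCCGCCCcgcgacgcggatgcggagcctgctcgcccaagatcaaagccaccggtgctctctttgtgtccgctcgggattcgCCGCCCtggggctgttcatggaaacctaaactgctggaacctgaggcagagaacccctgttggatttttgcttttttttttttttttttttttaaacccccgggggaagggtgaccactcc
Dot1l, chr10:80754953-80755252, plus strand: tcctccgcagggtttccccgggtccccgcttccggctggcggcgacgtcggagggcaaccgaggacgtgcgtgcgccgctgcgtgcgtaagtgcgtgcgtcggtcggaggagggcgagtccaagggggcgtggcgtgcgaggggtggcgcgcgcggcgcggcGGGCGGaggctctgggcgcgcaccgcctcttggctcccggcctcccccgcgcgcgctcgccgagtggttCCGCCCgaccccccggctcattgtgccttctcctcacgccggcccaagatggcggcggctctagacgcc
Jmjd6, chr11:116843400-116843699, minus strand: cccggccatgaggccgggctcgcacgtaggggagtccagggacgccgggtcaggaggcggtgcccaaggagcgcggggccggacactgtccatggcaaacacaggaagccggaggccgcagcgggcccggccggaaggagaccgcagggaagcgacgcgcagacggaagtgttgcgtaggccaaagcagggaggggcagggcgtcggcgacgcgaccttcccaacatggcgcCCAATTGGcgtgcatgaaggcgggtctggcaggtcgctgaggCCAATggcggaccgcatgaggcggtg
Kmt5c, chr7:4739877-4740176, plus strand: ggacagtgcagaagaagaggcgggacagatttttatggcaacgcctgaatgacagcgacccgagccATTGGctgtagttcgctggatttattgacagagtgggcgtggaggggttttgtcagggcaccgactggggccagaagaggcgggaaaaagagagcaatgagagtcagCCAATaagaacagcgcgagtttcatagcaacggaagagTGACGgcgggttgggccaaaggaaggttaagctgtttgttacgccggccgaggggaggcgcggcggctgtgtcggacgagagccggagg

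Kmt2a held 5 GC boxes in this window, Kmt2d 4 and Dot1l 2. Jmjd6 and Kmt5c held none, with 3 and 2 CCAAT boxes, and Kmt5c had a cyclic AMP response element core at −39. A member was counted if any of its windows held the motif, whereas all promoters were counted window by window. Of the 41 members 32 had exactly 1 window, so the member shares may be raised against those of all promoters. GC boxes were in 29 of 41 members (70.7%) and in 35.7% of all 32851 promoters, and in 7 of the 8 shared members with a window. The core was in 26.8% of members and 20.8% of all promoters, a share that differs little, and in 1 of the 8. The full element was in 2.44% of members and 1.79% of all promoters, and the E-box in 7.32% and 7.15%. The EGR motif was in 2.44% and 0.61%, and the CCAAT box in 46.3% and 37.4%. The TATA motif TATAAA, which is not capitalized in the windows, was in 4.88% of members and 13.6% of all promoters. Member promoters were rich in CpG, with a median of 26 CpG and 62.7% GC against 7 CpG and 52.7% GC over all promoters.

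Kdm6b had the largest fall of the 54 members in both genotypes. It encodes JMJD3, a demethylase that removes the Polycomb mark from H3K27 and is itself an inducible gene. In Het males the fluoxetine libraries had 455, 611, 626, 564 and 886 normalized counts against 1532, 1276, 1019, 1210 and 941 with vehicle. In Het females they had 809, 970, 831, 601 and 763 against 723, 1102, 732, 895 and 1233. All fluoxetine libraries lay below all vehicle libraries in Het males, whereas in Het females the groups overlapped and vehicle libraries 1 and 3 were themselves low. In WT males the counts were 594, 627, 860, 725 and 571 with fluoxetine against 1005, 1110, 970, 1003 and 916 with vehicle. In WT females they were 674, 678, 802, 564 and 702 against 960, 1085, 1105, 1294 and 1235. Neither WT sex showed an overlap. Averaged over the sexes the log2 fold change was −0.58 ± 0.10 in Het (adjusted p = 9.79e-06) and −0.66 ± 0.10 in WT mice (adjusted p = 4.57e-06). By sex it was −0.94 in Het males, −0.22 in Het females (adjusted p = 0.284), −0.58 in WT males and −0.73 in WT females. In Het mice the response of females minus that of males was 0.72 ± 0.20, at an unadjusted p of 0.000553 that did not pass limma's adjustment over all genes (adjusted p = 0.171). It passed only without Het fluoxetine male 5 (0.85, adjusted p = 0.042). In every other fit that left out 1 fluoxetine or vehicle library it missed, at adjusted p from 0.065 to 0.35. The adjusted p of edgeR was 0.197. In WT mice the same difference was −0.15, of the opposite sign (adjusted p = 1), and the mean of both genotypes was 0.28 ± 0.14 (adjusted p = 0.989).

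**Figure D3:**
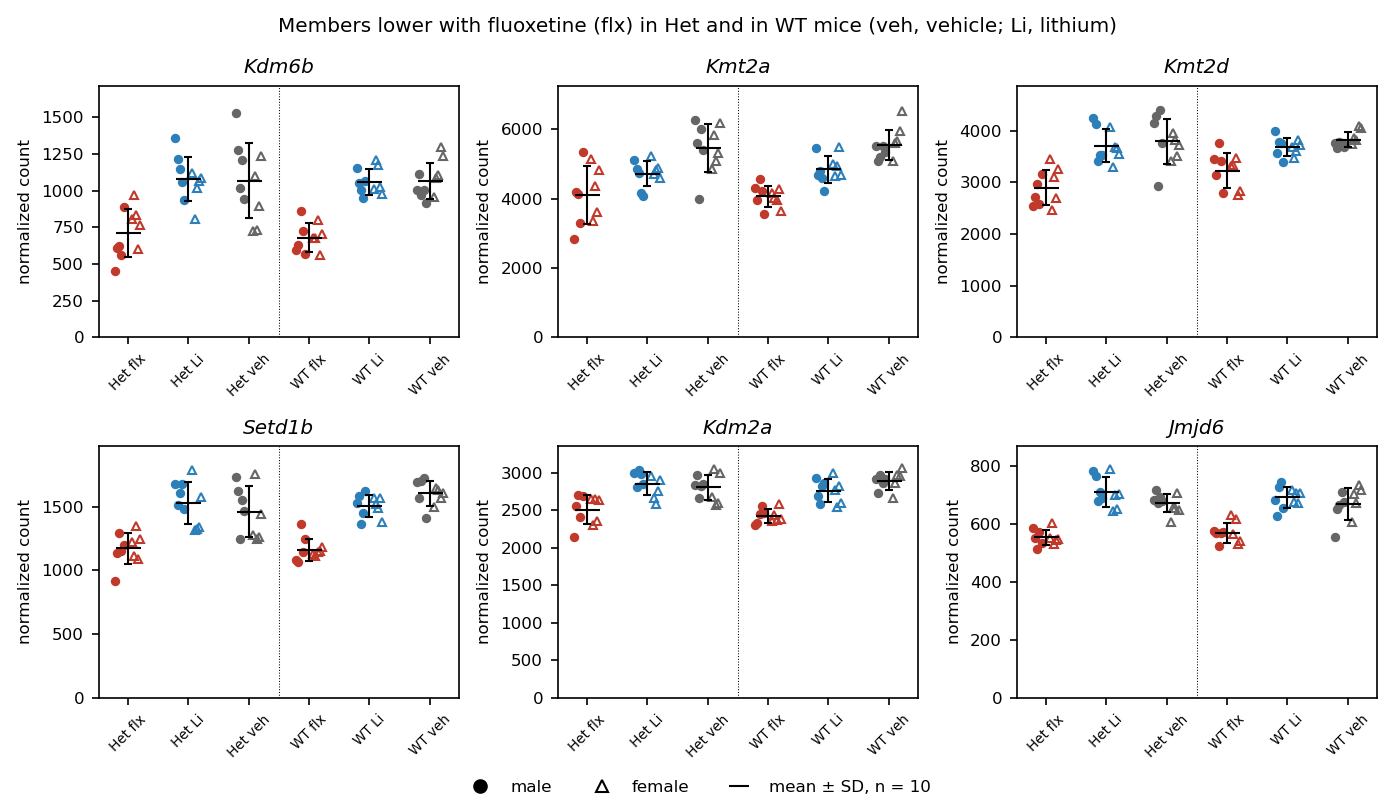
Normalized counts of 6 members lower with fluoxetine in both genotypes, 1 point per library, with fluoxetine (flx), lithium (Li) and vehicle (veh) in Het and then WT mice and the mean ± SD of 10 libraries. Fluoxetine points sit low in both genotypes, with Kdm6b at means of 712 and 680 against 1066 and 1068 with vehicle, while its lithium means are 1082 and 1062.

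Dot1l, the sole H3K79 methyltransferase, had 2007, 2456 and 2981 normalized counts with fluoxetine against 2523, 3041 and 3665 with vehicle in Het mice, and 2373.1, 2510 and 2896 against 2550, 2868 and 3181 in WT mice. In Het mice 5 of 10 fluoxetine libraries lay below every vehicle library, and in WT mice 6 of 10. The log2 fold changes were −0.28 ± 0.05 in Het (adjusted p = 2.71e-05) and −0.17 ± 0.05 in WT mice (adjusted p = 0.0241). The WT call was lost without fluoxetine male 5 (adjusted p = 0.0634). Of the H4K20 methyltransferases, Kmt5a, the monomethyltransferase tied to the cell cycle, had 879, 1091 and 1385 with fluoxetine against 1181, 1227 and 1385 with vehicle in Het mice. In WT mice Kmt5a had 1076, 1138 and 1270 with fluoxetine against 1153, 1254 and 1414 with vehicle. In Het mice 9 of 10 fluoxetine libraries lay below every vehicle library, and in WT mice 6 of 10. Kmt5a had a log2 fold change of −0.23 ± 0.05 in Het (adjusted p = 0.000173) and −0.15 ± 0.05 in WT mice (adjusted p = 0.0415), and the WT call was kept in 6 of 20 fits that left out 1 library. Nsd2, an H3K36 dimethyltransferase, was the one member of its group of 5 called with fluoxetine, at −0.11 ± 0.03 in Het (adjusted p = 0.0116) and −0.12 ± 0.03 in WT mice (adjusted p = 0.0208). In WT mice the Nsd2 call was lost without fluoxetine male 5 or vehicle female 5 (adjusted p = 0.0631 and 0.0651). In Het mice it was lost without the olfactory-bulb-high libraries (0.0878) and with only the groups compared (0.0672).

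Among the demethylases, Kdm2a, a CpG-island-binding H3K36 demethylase, had 2145, 2595 and 2698 normalized counts with fluoxetine against 2570, 2832 and 3045 with vehicle in Het mice, and 2297, 2408 and 2580 against 2662, 2917 and 3058 in WT mice. WT libraries did not overlap, and 5 of 10 Het fluoxetine libraries lay below all Het vehicle libraries. Its log2 fold change was −0.16 ± 0.04 in Het (adjusted p = 0.000794) and −0.25 ± 0.04 in WT mice (adjusted p = 3.92e-06). Kdm7a, a PHD and JmjC demethylase of H3K9 and H3K27, had 1765, 2053 and 2421 with fluoxetine against 2025, 2386 and 2572 with vehicle in Het mice, and 1860, 2033 and 2129 against 2009, 2416 and 2648 in WT mice. The lowest Kdm7a values came with fluoxetine in both genotypes, and the ranges overlapped. Kdm7a had a log2 fold change of −0.14 ± 0.05 in Het (adjusted p = 0.0146) and −0.26 ± 0.05 in WT mice (adjusted p = 0.000165). The Het call of Kdm7a was lost without fluoxetine male 3 (0.0536), with only the groups compared (0.0928) and without the olfactory-bulb-high libraries (0.128), and that of Kdm2a without the same libraries (−0.13, 0.063). Jmjd1c, a JmjC protein of the H3K9 demethylase family, had 2347, 2722 and 3100 with fluoxetine against 2479, 2998 and 3170 with vehicle in Het mice. In WT mice it had 2434, 2584 and 2800 against 2830, 2909 and 3093. It did not overlap in WT mice and overlapped widely in Het mice, at −0.15 ± 0.04 (adjusted p = 0.00158) in Het and −0.17 ± 0.04 (adjusted p = 0.000933) in WT mice. Jmjd6 did not overlap in Het mice, with 514, 549 and 603 normalized counts with fluoxetine against 607, 677 and 716 with vehicle. For this and the other members without overlap, the share of all genes that separated in the same way was not counted. In WT mice Jmjd6 had 524, 570 and 633 against 556, 675 and 735, with 8 vehicle libraries above every fluoxetine library. Its log2 fold change was −0.28 ± 0.04 in Het (adjusted p = 1.33e-06) and −0.23 ± 0.04 in WT mice (adjusted p = 0.000132).

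Within single sexes (5 libraries against 5) fewer members were called in each comparison than in the average of that genotype. In Het males 4 were higher and 15 lower, where 12% and 10.7% of all genes were. In Het females 2 were higher and 9 lower, against 7.08% and 8.04%. In WT males 0 were higher and 5 lower (0.247% and 1.09% of all genes), and in WT females 0 higher and 9 lower (0.607% and 1.9%). The Het female count was 6 without fluoxetine female 4, the WT female count was 5 without fluoxetine female 5 or vehicle female 4, and the WT male count was 2 or 3 without any 1 of 7 libraries (fluoxetine male 1, 2, 4 and 5, vehicle male 2, 4 and 5). Jmjd6 was lower in Het males (−0.32), Het females (−0.24) and WT females (−0.25) and had −0.21 in WT males (adjusted p = 0.0556). Kmt2a and Kmt2d showed the same split, with Kmt2a at −0.38 (adjusted p = 0.0643) and Kmt2d at −0.18 (adjusted p = 0.407) in WT males. Setd3 and Smyd3 were higher in Het males alone by their calls, at 0.10 ± 0.04 (adjusted p = 0.0294) and 0.20 ± 0.06 (adjusted p = 0.0091). Smyd3 had 941, 1067, 993, 1005 and 1005 normalized counts with fluoxetine against 827, 854, 911, 844 and 933 with vehicle, and these groups did not overlap. A test of the interaction of sex and fluoxetine over both genotypes called 0 of 54 members and 0.0% of all genes, with 3 members at an unadjusted p under 0.05 and 0 called by edgeR. Within Het mice, a test added after the data were seen, it called 0 members and 0.0112% of all genes, with 11 members at an unadjusted p under 0.05. Within WT mice it called 0 members and 0.0% of all genes, with 2 members at an unadjusted p under 0.05, and edgeR called 0 members in both. Kdm6b and Smyd3 (−0.29 ± 0.08, adjusted p = 0.171) had the smallest p of the members in Het mice.

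A test of the difference between the Het and the WT response to fluoxetine called 2 of 54 members (3.7%), Kmt5c and Setd6, where 1.7% of all genes were called. With vehicle, 5 of 10 Het libraries lay above every WT library for each of these genes. Above the WT vehicle mean lay 10 of 10 Het vehicle libraries for Kmt5c and 9 of 10 for Setd6. Het against WT with vehicle called neither gene, but this difference with vehicle enters the test. Kmt5c encodes SUV420H2, which trimethylates H4K20 in heterochromatin. In Het males it had 377, 341, 291, 307 and 336 normalized counts with fluoxetine against 559, 486, 472, 511 and 446 with vehicle, with no overlap. In Het females it had 498, 402, 366, 317 and 345 against 449, 442, 531, 489 and 456, and replicate 1 was the one fluoxetine library inside the vehicle range. In WT mice the lowest, median and highest values were 317, 439 and 482 with fluoxetine against 374, 436 and 476 with vehicle, and the ranges overlapped. The log2 fold change was −0.45 ± 0.07 in Het (adjusted p = 1.67e-06) and −0.06 ± 0.07 in WT mice (adjusted p = 0.647), and the difference was −0.39 ± 0.10 (adjusted p = 0.0313). This interaction call was lost without any 1 of 8 libraries (Het fluoxetine female 3 and 5 and male 3, Het vehicle female 3 and 4, WT fluoxetine female 2 and male 1, WT vehicle male 1), at adjusted p from 0.0501 to 0.0624. It also lay outside the threshold without the 16 olfactory-bulb-high libraries (−0.50, adjusted p = 0.0974) and without the 9 striatum-high libraries (−0.33, adjusted p = 0.242). The Het response itself passed the threshold in all 11 alternatives and all 20 fits that left out 1 library.

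Setd6 had 135, 156 and 181 normalized counts with fluoxetine against 170, 197 and 217 with vehicle in Het mice. In WT mice it had 147, 192 and 223 with fluoxetine against 157, 175 and 202 with vehicle. Fluoxetine libraries lay low in Het mice, with 7 of 10 below every vehicle library, and in WT mice 4 of 10 lay above every vehicle library. The log2 fold change was −0.31 ± 0.07 in Het (adjusted p = 0.000191) and 0.11 ± 0.07 in WT mice (adjusted p = 0.285), a difference of −0.43 ± 0.09 (adjusted p = 0.0218). The interaction passed in all 40 fits without 1 library and missed the threshold without the 16 olfactory-bulb-high libraries (−0.45, adjusted p = 0.111) and without the 9 striatum-high ones (−0.40, adjusted p = 0.202). With both genotypes on fluoxetine, Het against WT called 3 members, all lower, where 7.33% of all genes were called. They were Kmt5c (−0.23 ± 0.07, adjusted p = 0.0266), Setd6 (−0.27 ± 0.07, adjusted p = 0.00891) and Smyd5 (−0.18 ± 0.04, adjusted p = 0.00124). Smyd5, a SMYD methyltransferase, had 706, 784 and 862 in Het and 819, 884 and 927 in WT mice on fluoxetine. The Kmt5c call was lost without any 1 of 7 libraries (Het fluoxetine female 4 and 5 and male 3, WT fluoxetine female 1 and 2 and male 1 and 3; adjusted p 0.053 to 0.0665). The Setd6 call was lost without the olfactory-bulb-high libraries (0.0685), and with only the groups compared Kmt5c and Setd6 were at 0.165 and 0.0974. The count was 5 without Het fluoxetine female 1, male 2 or male 4 or WT fluoxetine male 5, and 7 without Het fluoxetine male 1 or WT fluoxetine female 4. Without the 9 striatum-high libraries 0 of the 3 passed, at adjusted p of 0.282, 0.0912 and 0.0577.

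**Figure D4:**
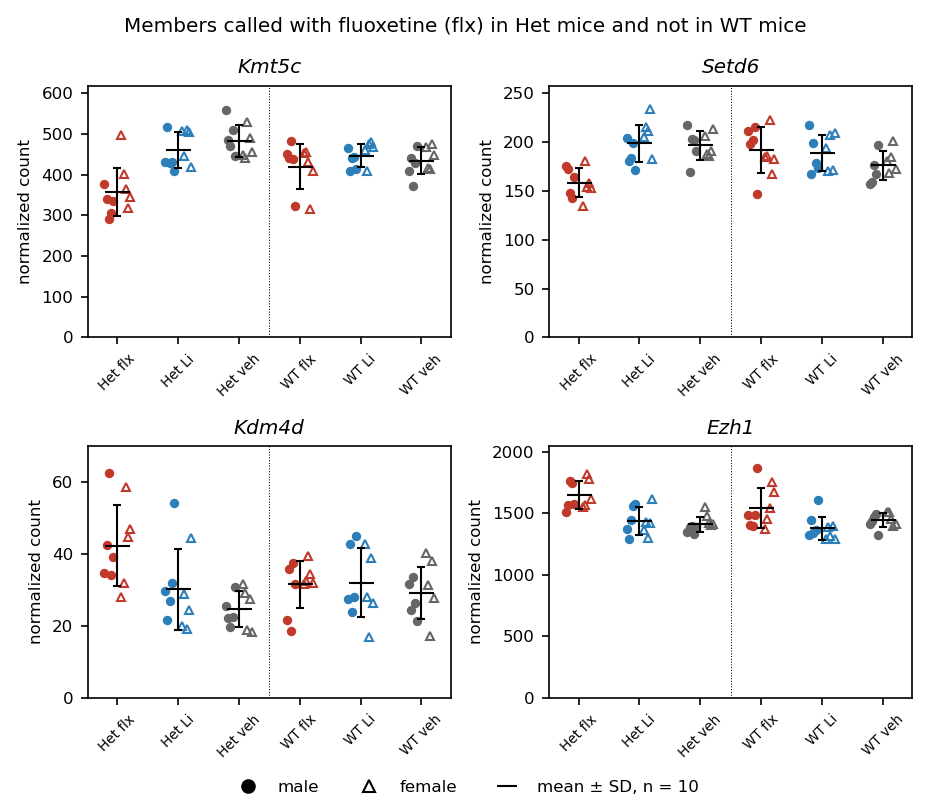
Normalized counts of Kmt5c, Setd6, Kdm4d and Ezh1, 1 point per library, with fluoxetine (flx), lithium (Li) and vehicle (veh) in Het and then WT mice and the mean ± SD of 10 libraries. With fluoxetine, Kmt5c averages 358 in Het and 420 in WT mice, against vehicle means of 484 and 435, and Ezh1 averages 1649 in Het mice against 1412 with vehicle.

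Apart from the shared set, 6 members were lower with fluoxetine by their calls in Het mice alone and 6 in WT mice alone, and apart from Kmt5c and Setd6 no difference between the genotypes passed its test. Setdb1, which trimethylates H3K9 at retroelements, had 1279, 1342 and 1463 normalized counts with fluoxetine against 1398, 1526 and 1709 with vehicle in Het mice. In Het mice 7 of 10 fluoxetine libraries lay below all vehicle libraries. The log2 fold change of Setdb1 was −0.17 ± 0.03 in Het (adjusted p = 7.65e-05, and 0.0844 without the 16 olfactory-bulb-high libraries) and −0.08 ± 0.03 in WT mice (adjusted p = 0.103). Kdm1b, the LSD1 paralog that demethylates H3K4, and Kdm3b, an H3K9 demethylase, were lower in Het mice at −0.11 and −0.15 (adjusted p = 0.0412 and 0.0216). The Kdm1b call was lost in 11 of 20 fits that left out 1 library (adjusted p up to 0.105), under quantile normalization (−0.07, 0.195) and without the striatum-high libraries (0.112). The Kdm3b call was lost without fluoxetine female 2, fluoxetine male 4 or vehicle male 1 (up to 0.0683). Without the olfactory-bulb-high libraries Kdm1b had −0.09 (0.403) and Kdm3b −0.07 (0.516), and with only the groups compared the adjusted p was 0.0982 and 0.0784. In WT mice Kdm5b, an H3K4 demethylase, had 1608, 1778 and 1868 with fluoxetine against 1898, 2081 and 2163 with vehicle and did not overlap. Its log2 fold change was −0.23 ± 0.05 in WT (adjusted p = 0.00293) and −0.05 ± 0.05 in Het mice (adjusted p = 0.516). Suv39h2, an H3K9 trimethylating enzyme of pericentromeric heterochromatin, had 104, 117 and 135 with fluoxetine against 122, 145 and 161 with vehicle in WT mice, where 9 vehicle libraries lay above every fluoxetine library. Its log2 fold change was −0.28 ± 0.07 in WT (adjusted p = 0.00754) and −0.10 ± 0.07 in Het mice (adjusted p = 0.287). The H3K9 mono- and dimethyltransferase Ehmt1 (−0.16, adjusted p = 0.0352), the H3K9 demethylase Kdm3a (−0.13, 0.0266) and Setd5 (−0.10, 0.0476) were the remaining WT calls, beside Kmt2e. Leaving out 1 library ended the Ehmt1 call in 8 of 20 fits (adjusted p up to 0.0814), the Kdm3a call in 5 (up to 0.0595) and the Setd5 call in 15 (up to 0.0938). Each of the 3 was also lost without the olfactory-bulb-high libraries (0.0602, 0.0927 and 0.16) and with the long-gene covariate (0.339, 0.154 and 0.536).

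Few members were higher with fluoxetine. Ezh1, a catalytic subunit of Polycomb repressive complex 2, had 1510, 1595 and 1822 normalized counts with fluoxetine against 1336, 1402 and 1548 with vehicle in Het mice. In WT mice it had 1373, 1486 and 1865 with fluoxetine against 1327, 1448 and 1513 with vehicle. In Het mice 9 of 10 fluoxetine libraries lay above every vehicle library, and the log2 fold change was 0.22 ± 0.05 (adjusted p = 0.000186), beside 0.09 ± 0.05 in WT mice (adjusted p = 0.226). Kdm4d, a demethylase of H3K9 known mainly from testis, was the lowest member per kilobase. It had 27.9, 41.0 and 62.6 normalized counts with fluoxetine against 18.4, 23.9 and 31.6 with vehicle in Het mice, with 9 of 10 fluoxetine libraries above every vehicle library (0.74 ± 0.18, adjusted p = 0.000881). In WT mice it had 18.7, 32.2 and 39.4 against 17.2, 29.5 and 40.4 (0.12 ± 0.18, adjusted p = 0.731). The WT vehicle median of Kdm4d lay above the Het vehicle median, and the interaction was not called. Kdm4b, which demethylates H3K9 and H3K36, was higher with both drugs. It had 1734, 1922 and 2081 with fluoxetine against 1556, 1699 and 1924 with vehicle in Het mice, and 1671, 1857 and 1957 against 1552, 1689 and 1788 in WT mice. The log2 fold change of Kdm4b was 0.13 ± 0.04 in Het (adjusted p = 0.0061) and 0.12 ± 0.04 in WT mice (adjusted p = 0.0277), and with libraries rescaled to the same total the adjusted p was 0.0678 and 0.0894. The WT call was also lost without any 1 of 5 libraries (fluoxetine female 5, male 4 and male 5, vehicle female 5 and male 5).

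Lithium called few members after adjustment. In Het mice 3 were higher and 4 lower, against 5.3% and 3.84% of all genes, and in WT mice 1 was higher and 1 lower, against 1.9% and 1.07%. At limma's unadjusted p under 0.05, 3 members were higher and 13 lower in WT mice, beside 1658 and 1490 of all 17807 genes. In Het mice 5 were higher and 10 lower, beside 2352 and 2118 genes. The WT pair, Kdm4b and Jmjd1c, was also called in Het mice. Kdm4b had 1800, 1915 and 2090 normalized counts with lithium in Het and 1752, 1875 and 2094 in WT mice, at 0.14 ± 0.04 (adjusted p = 0.0106) and 0.15 ± 0.04 (adjusted p = 0.0144) against the vehicle values above. Jmjd1c had 2539, 2649 and 2774 with lithium in Het and 2524, 2690 and 2807 in WT mice, at −0.14 ± 0.04 (adjusted p = 0.00855) and −0.13 ± 0.04 (adjusted p = 0.0334). All 10 WT lithium libraries of Jmjd1c lay below all WT vehicle libraries. These comparisons share their vehicle libraries with those of fluoxetine. Further calls in Het mice were Setd2, the H3K36 trimethylating enzyme, at −0.15 (adjusted p = 0.0234), Kdm3b at −0.18 (0.0251), Kdm8 at −0.29 (0.0406), Kdm4a at 0.14 (0.047) and Smyd4 at 0.19 (0.0487). The Het count of 7 ran from 2 to 12 when 1 library was left out: it was 2 without lithium female 5, 3 without vehicle male 1 or male 4, 4 without lithium male 4 or male 5 or vehicle female 3 or female 4, and 12 without vehicle male 3. Leaving out 1 library ended the Het call of Kdm4a and of Smyd4 in 13 of 20 fits each, of Kdm8 in 10, of Kdm3b in 5 and of Setd2 in 2. Without the olfactory-bulb-high libraries 5 of the 7 were lost (Jmjd1c, Kdm3b, Kdm8, Setd2 and Smyd4), and both WT calls. The WT count fell to 1 without lithium female 2, male 2 or male 4 or vehicle female 5 or male 5. Within single sexes lithium called 1 member in Het males (Kdm4b, 0.19, adjusted p = 0.0434; 2.0% of all genes; 0 without lithium male 1, 3, 4 or 5 or vehicle male 2 or 4, and 6 without vehicle male 3) and 0 in Het females (0.629%), WT males (0.0786%) and WT females (0.118%). At an unadjusted p under 0.05 these last comparisons held 7, 4 and 6 members, and edgeR called 0 in each. The test of a difference in the lithium response between genotypes called 0 members and 0.0% of all genes, with 0 at an unadjusted p under 0.05 and 0 by edgeR.

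Fluoxetine was also set against lithium directly, with no vehicle library in the comparison. In Het mice 8 members were higher and 16 lower (12.4% and 12.6% of all genes), and in WT mice 2 were higher and 12 lower (2.95% and 4.78%). The WT count was 9 without fluoxetine female 5 or male 5. Of the 13 shared members, 9 were lower than with lithium in both genotypes. The 13 were picked for low values in these same fluoxetine libraries, so this count is no independent support. The share of all genes lower in both was not counted. Jmjd6 had the smallest adjusted p in Het mice (−0.36 ± 0.04, 3.75e-09) and in WT mice (−0.28 ± 0.04, 3.27e-06). Kdm6b was at −0.63 ± 0.10 in Het (adjusted p = 2.47e-06) and −0.65 ± 0.10 in WT mice (3.79e-06), and Kmt5a at −0.34 (3.72e-07) and −0.30 (1.7e-05). Kmt2a, whose lithium libraries lay between the others at a mean of 4720 in Het and 4854 in WT mice, differed less, by −0.22 (0.028) and −0.26 (0.0283). Jmjd1c was not called in this contrast in either genotype.

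With vehicle, Het against WT called 0 of 54 members, where 0.0562% of all genes were called, with 6 members at an unadjusted p under 0.05 and 0 called by edgeR. Smyd5 had −0.11 (adjusted p = 0.403), and Smyd1, with 38.7, 58.2 and 88.8 normalized counts in Het and 50.5, 74.5 and 96.9 in WT mice, had −0.36 (adjusted p = 0.592). In males 0 members and 0.0168% of all genes were called, and in females 0 and 0.0225%, with 7 and 6 members at an unadjusted p under 0.05 and 0 by edgeR in each. On lithium Het against WT called 0 members and 0.0393% of all genes, with 4 members at an unadjusted p under 0.05 and 0 by edgeR. For Kdm6b, Kmt2a and Kmt2d the Het and WT vehicle medians were 1061 and 1045, 5503 and 5511, and 3790 and 3768.

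The 22 members called neither with a drug against vehicle nor between the genotypes on vehicle, in the averages over both sexes, included Ehmt2, Ezh2, Kdm1a, Kdm2b, Kdm4c, Kdm5a, Kmt5b, Nsd1, Nsd3, Setd3 and Smyd2. With fluoxetine they ran from −0.11 (Setd7) to 0.36 (Smyd1, adjusted p = 0.059) in Het mice and from −0.29 (Ezh2, adjusted p = 0.245) to 0.15 (Setd4, adjusted p = 0.278) in WT mice. Ezh2 ranged from 83.1 to 330 normalized counts over the libraries and had an SE of 0.15 log2. Jmjd7 shares 66.7% of its exon bases with the read-through gene Gm28042 on the same strand, so its level is uncertain. A total of 25 members share some exon bases with another annotated gene, 11 of them over 5%, and whether the counting used strand is not given in the sources used here.

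The members are long genes, and gene length moved with the response. Their median exon length was 7034 bases against 4038 over all genes with a length, and it was 12068 for the 13 shared members and 6035 for the other 41. Among genes with over 10000 exon bases, fluoxetine lowered 45% of 20 members and 23.5% of 1491 genes in Het mice, and 55% of the members and 13.1% of the genes in WT mice. Among genes of up to 5000 bases it lowered 3 of 13 members and 12.5% of genes in Het mice, and 2 of 13 and 2.6% in WT mice. With the level of long genes in each library as a covariate, a fit added after the data were seen, 24 members were called in Het and 8 in WT mice. In WT mice the fold change of Kmt2d was then −0.13 (adjusted p = 0.129), of Kmt2b −0.13 (0.115), of Dot1l −0.12 (0.222) and of Kmt2c −0.05 (0.579), while Kdm6b, Kmt2a, Setd1b, Kdm2a, Jmjd6, Kdm7a, Jmjd1c and Kmt5a still passed. The level of long genes itself differed with the drug in WT mice. Its lowest, median and highest values were −0.06, −0.01 and 0.01 with fluoxetine against −0.01, 0.04 and 0.10 with vehicle. A call lost in this fit therefore cannot be told apart from a drug response taken up by the covariate. The part of transcript length in these results was not tested further.

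**Figure D5:**
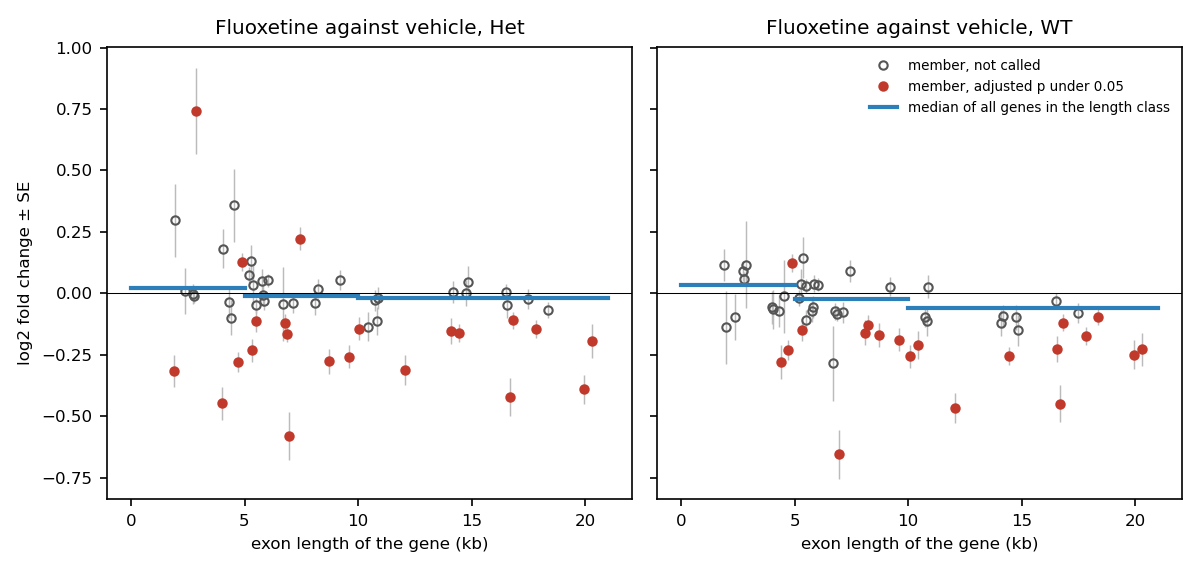
Log2 fold change ± SE of the 54 members with fluoxetine against exon length in kilobases, in Het (left) and WT mice (right), with called members filled and the blue lines at the median of all genes up to 5000, up to 10000 and over 10000 exon bases. In WT mice the lines fall with length to −0.06, and 11 of the 20 members over 10000 bases are called lower.

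Some markers of other cells were lower with fluoxetine in Het mice beside these results. Lower were 8 of 11 leptomeningeal, 6 of 10 endothelial and 6 of 11 microglial markers, where 16% of all genes were lower. Higher were 2 of 12 striatal markers, near the 16.9% of all genes that were higher. The summed leptomeningeal count was 5272 to 10715 with fluoxetine (median 5695) and 5561 to 10943 with vehicle (median 7889). The endothelial sum was 6977 to 9397 (median 8066) against 7772 to 11750 (median 9323). That of oligodendrocyte and myelin markers was 42464 to 219113 (median 164417) against 38979 to 172562 (median 109766). In WT mice the medians of this last sum lay the other way, at 102205 with fluoxetine and 132959 with vehicle. In WT mice 0 of 11 leptomeningeal, 0 of 10 endothelial and 0 of 11 microglial markers were lower, where 5.06% of all genes were. Of the 14 olfactory bulb markers 1 was lower, at a list median of −0.89 log2. None of these markers was at 0 throughout, and their part in the members' values was not tested. In bulk tissue, fewer cells of a type and less RNA per cell cannot be told apart.

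The partners of these enzymes were read from a list of 72 other genes. In Het mice 12 were higher and 15 lower with fluoxetine, and in WT mice 2 were higher and 8 lower. As shares these are 16.7% and 20.8% in Het mice, near the 16.9% and 16% of all genes, and 2.78% and 11.1% in WT mice, where 3.14% and 5.06% of all genes were called. The list median was −0.01 in Het and −0.04 in WT mice. Of the CoREST partners of the H3K4 demethylase LSD1, Rcor1 was lower in both genotypes (−0.19 and −0.21, adjusted p = 0.000374 and 0.000384), as was Rcor2 (−0.23 and −0.36, adjusted p = 0.00266 and 5.21e-05). Of the Polycomb list, Rbbp4 (0.19, adjusted p = 5.94e-05) and Rbbp7 (0.13, adjusted p = 0.0011) were higher in Het mice, and both also serve other chromatin complexes. Mllt1, a partner of DOT1L in elongation complexes, was lower in Het mice (−0.23, adjusted p = 1.17e-05). Cxxc1, the CpG-binding subunit of the SET1 complexes, was lower in Het mice (−0.16, adjusted p = 0.000565), and Hcfc1, shared by SET1 and MLL complexes, in WT mice (−0.23, adjusted p = 0.0112). Phf8, an X-linked H3K9 demethylase, was lower in WT mice (−0.21, adjusted p = 0.000888). With lithium 3 of the 72 were higher and 3 lower in Het mice, and 0 in WT mice. With vehicle, Het against WT called 0 of them.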

How the data were processed

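RNA-seq libraries (TruSeq Stranded mRNA) were made from 60 prefrontal cortices. The submitters' processing notes list GRCm38 with Salmon (version 0.11.2), R (3.6.0) and DESeq2 (1.19.11), without the role of each, and the authors' annotation is not stated there. The authors deposited a signal per gene, reads divided by 1 size factor per library, and 100% of values came out as whole reads (tolerance 0.001), at 24.1 M to 31.6 M reads per library (median 28.3 M). Gene names and positions come from the reference annotation (18077 IDs matched) and promoters from RefSeq.

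Genes with at least 10 normalized counts in at least 5 libraries (17807 of 18088) were fitted as log2(value + 1) in 1 model of 12 groups (48 residual degrees of freedom) with limma 3.58.1 in R 4.3.3, with Benjamini-Hochberg adjustment over all genes and a threshold of 0.05. Adjusted p-values are limma's unless edgeR is named, and fold changes on this scale understate low genes. edgeR 4.0.16 on the whole reads was an alternative, since the deposited values are not raw counts. The code was tested on simulated data. Members named with full values were up to 20 called in the averages over both sexes, by smallest adjusted p, then those called in an interaction, between the drugs or in a single sex, and up to 2 partner genes per list; further members named with fewer values were picked after their values were seen. The members and lists were chosen with earlier results of these data known. Fits without libraries of high olfactory bulb or striatal marker scores, and with a long-gene covariate, and the sex interaction within each genotype, were added after the data were seen. Replicate numbers are not stated to pair the libraries. Drug and vehicle groups of the same sex and genotype, and Het and WT vehicle groups of the same sex, were compared. Correlations of same-numbered deviations ran from −0.28 to 0.22, and in 0 of 10 group pairs was each over 0.1. Males and females, and Het and WT mice on the same drug, were not compared, so shared litters cannot be judged from these values.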

Additional observations from a re-analysis of the deposited data

Results flagged for a closer look

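In 12 of 240 groups of 5 libraries, over 20 members, 1 library stood apart from its group by Dixon's test (critical value 0.71), and chance alone gives about 1 in 20. Jmjd6 was high in Het fluoxetine female 2 (603.08 normalized counts) and low in WT fluoxetine male 3 (524.19). Kmt5c was high in Het lithium male 2 (518.55) and low in WT fluoxetine male 5 (324.34) and WT lithium female 2 (408.47). Dot1l was low in Het lithium female 2 (2717.29) and Kmt5a in WT vehicle female 4 (1152.89). WT fluoxetine male 5 also had the highest Ezh1 (1864.69) and the lowest Setd6 (146.8) of its group, so it stood apart for 3 members. Jmjd1c was high in WT fluoxetine female 4 (2800.06), and Setd1a was low in WT fluoxetine female 1 (1521.35) and in WT fluoxetine male 2 (1550.95).

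For Kmt5c and Setd6 the response to fluoxetine differed between Het and WT mice by limma's interaction test, at −0.39 and −0.43 log2 (adjusted p = 0.0313 and 0.0218). Both calls were lost without the libraries of high olfactory bulb or striatal scores, and their cause was not tested.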

How the results depend on the processing

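Of 3899 alternative values of 139 member calls, 0 reversed, 3318 kept their call and 581 lost it. Replicate numbers are not stated to pair the libraries, and 11 of 50 correlated best with their own number in the group pairs compared. With these numbers as a block, 22 members were called with fluoxetine in Het and 19 in WT mice. Without the 16 olfactory-bulb-high libraries, fluoxetine called 13 members in Het mice, 11 in WT mice, 4 in Het males, 3 in Het females and 3 in WT females. In those fits lithium called 4 in Het mice, 0 in WT mice, 0 in Het males but 3 in Het females, Het against WT with vehicle 1 and the fluoxetine interaction 0. Without the 9 striatum-high libraries, fluoxetine called 3 in WT males, lithium 1 in WT mice and 0 in Het males, Het against WT on fluoxetine 0 and the interaction 0. With the long-gene covariate, fluoxetine called 8 in WT mice, 2 in WT males and 5 in WT females, lithium 4 in Het mice, 0 in Het males but 1 in Het females, and Het against WT on fluoxetine 6. With only the groups compared in the fit, fluoxetine called 6 in Het males, 2 in Het females and 9 in WT males, lithium 3 in Het mice, 8 in WT mice and 0 in Het males. That fit also called 1 for Het against WT on fluoxetine, 1 for the interaction and 14 for fluoxetine against lithium in Het mice. At an adjusted p under 0.01, fluoxetine called 11 in WT mice, 12 in Het males, 5 in Het females, 2 in WT males and 4 in WT females, lithium 1 in Het mice, 0 in WT mice and 0 in Het males. At that threshold the interaction called 0, and fluoxetine against lithium 15 in Het and 8 in WT mice. Quantile normalization called 5 for Het against WT on fluoxetine and 0 for lithium in Het males, rescaling called 1 for lithium in WT mice and 0 in Het males, and edgeR called 0 for lithium in Het males. The cause was not tested, beyond fewer libraries, fewer degrees of freedom or a stricter threshold where the alternative sets these.

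With 1 library left out, fluoxetine called 19 to 25 members in Het mice, 13 to 19 in WT mice, 14 to 25 in Het males, 6 to 14 in Het females, 2 to 5 in WT males and 5 to 9 in WT females. Lithium called 2 to 12 in Het mice, 1 to 2 in WT mice and 0 to 6 in Het males. Het against WT on fluoxetine called 2 to 7, the interaction 1 to 3, and fluoxetine against lithium 19 to 24 in Het and 9 to 15 in WT mice. The widest standard errors with fluoxetine were those of Kdm4d (0.18 log2), Ezh2 (0.15), Smyd1 (0.15) and Jmjd7 (0.15).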
